A study of Rattus norvegicus with 72 samples.

Results

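Gene expression in rat dorsal root ganglia 24 h and 28 h after sham surgery was compared with that 1 h after sham surgery. The members were the arrays titled sham at these hours, 6 late arrays (3 at each hour) and 3 arrays at 1 h, which made 9 of the 72 arrays of the series and 9 of its 21 sham arrays. All groups were L4 and L5 ganglia of Wistar rats aged 8 to 12 weeks, measured on Affymetrix rat expression arrays. The comparison groups were arrays of the same hours after a crush of the sciatic nerve at a proximal site (3 arrays at each hour) or a distal site (4 arrays at 1 h and 3 at each late hour). No genetic modification or drug is named in the labels for any group. The labels do not describe what the sham operation consisted of, do not give the hour of the day at which it was done, and carry for sham arrays the same protocol text as for crushed nerves. Nothing in them ties an array to an animal, so every p-value below rests on array-to-array spread, which may be technical, and 3 arrays per hour set its precision. No unoperated ganglia were analysed here, so the operation, the time since it and the hour of day cannot be told apart.

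Sham surgery is the control that shares with a nerve lesion the anaesthesia, the handling and the wound, and it usually leaves the nerve itself intact. Such an operation raises circulating glucocorticoids, which act through a nuclear receptor to switch on a group of genes within the first hours, among them inhibitors of NF-kappaB, kinase regulators and Krüppel-like transcription factors. Immediate-early genes, which need no new protein to be transcribed, rise quickly after stimulation or tissue handling and decline again. The ganglion holds sensory neurons, satellite glia around each neuron, Schwann cells on the axons, endothelium, fibroblasts and resident macrophages. In a bulk sample of this kind fewer cells of a type and less RNA per cell cannot be told apart.

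The 9 arrays had medians between 6.89 and 7.04 log2 and interquartile ranges between 3.12 and 3.39 log2, with values from 3.30 to 14.33. Clustering on dim probe sets that were not tested divided the 72 arrays into 4 sets, a number fixed beforehand. They are called technical sets here, although the labels name no batch. The 27 arrays of set A were all distal, so set and lesion site cannot be fully told apart. All 9 sham arrays compared here, like the 9 proximal arrays of the same hours, lay in 1 set (set D). The other 12 sham arrays lay in sets B and C. A second split ran through the comparison. For 10 genes the values of the 72 arrays fell into separate bands at least 1.5 log2 apart, and these genes divided the arrays into 18 of kind 1 and 54 of kind 2. Array a at 1 h and all 6 late sham arrays were of kind 1, and arrays b and c at 1 h were of kind 2; the proximal arrays of these hours were divided in the same way by letter. In 269 genes arrays b and c at 1 h both lay at least 1 log2 above array a, and in 26 genes both lay at least 1 log2 below it. Arrays b and c at 28 h were unusually alike, with an SD of their differences of 0.126 log2 over genes, the lowest of 83 pairs of arrays within a group (median 0.274). The labels do not say what the sets, the kinds or the letters mean. Markers of the labelled tissue were bright in every array: the 24 sensory neuron markers averaged between 11.24 and 11.66 log2, the 18 Schwann cell and myelin markers between 11.15 and 11.36, and the 9 satellite glia markers between 10.79 and 11.13.

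**Figure D1:**
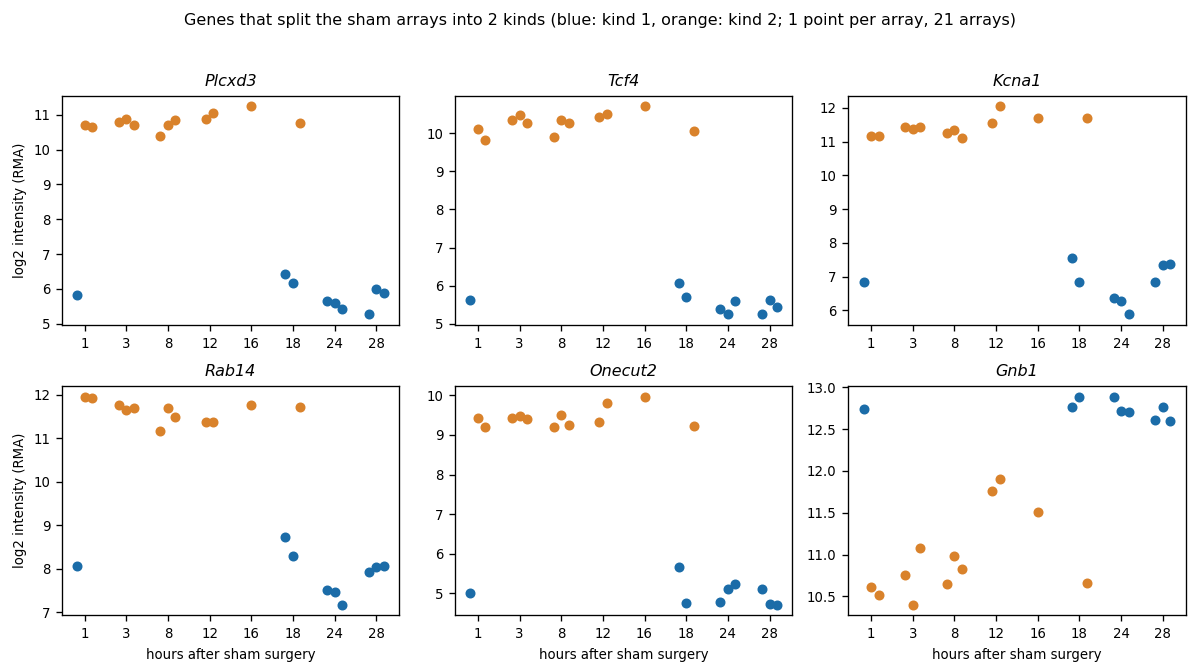
Log2 intensity of 6 genes (vertical axis) in each of the 21 sham arrays by hour after surgery (horizontal axis), with arrays of kind 1 in blue and of kind 2 in orange. At 1 h array a lies with the late arrays and arrays b and c lie apart from it, for Plcxd3 at 5.83 against 10.72 and 10.64.

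Because of this split results below come from the fit to all 72 arrays (1 mean for each of 24 groups), and calls were set against a second fit to the 18 sham and proximal arrays of 1, 24 and 28 h with array kind as a block. The effect of kind in the second fit comes from the 1 h arrays alone, so its late difference leans on array a. In the fit to all arrays 231 of 12276 genes (1.88%) were called at a limma adjusted p under 0.05, of which 139 (1.13%) were lower and 92 (0.749%) higher at 24 and 28 h. With array kind as a block 1249 genes (10.2%) were called, 989 lower (8.06%) and 260 higher (2.12%). The median difference of all genes was 0.02 log2 in the first fit and -0.09 in the second. Called in the same direction in both fits were 107 genes (0.872%), 62 lower (0.505%) and 45 higher (0.367%), and of these 22 lower and 4 higher differed at least 2-fold in both. The split into higher and lower calls moved with the scaling: another quantile normalization gave 320 higher and 216 lower, and shifting the arrays to a common median gave 233 higher and 229 lower. Groups did not overlap for 80 of the 139 lower and 69 of the 92 higher genes, against 478 (3.89%) and 468 (3.81%) of all tested genes.

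The count depended on the 1 h arrays. Without array b it was 13, without array c 15, and without array a 620. It was 111 without 24 h array b and 131 without 28 h array a. Without both 1 h b and c, which leaves 1 array at 1 h, 2 genes were called, Nfkbia and Depp1, both lower. A set of 12 genes (0.0978%) stayed called whichever of the 9 arrays was left out: Nfkbia, Sgk1, Klf9, Errfi1, Klf15, Per1, Depp1, Egr2 and Rbms1 were lower late (0.0733%), and Rsrp1, Lpar6 and Swt1 were higher (0.0244%). Groups did not overlap for 11 of them, Rbms1 being the exception, and the same 11 were called with the block.

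**Figure D2:**
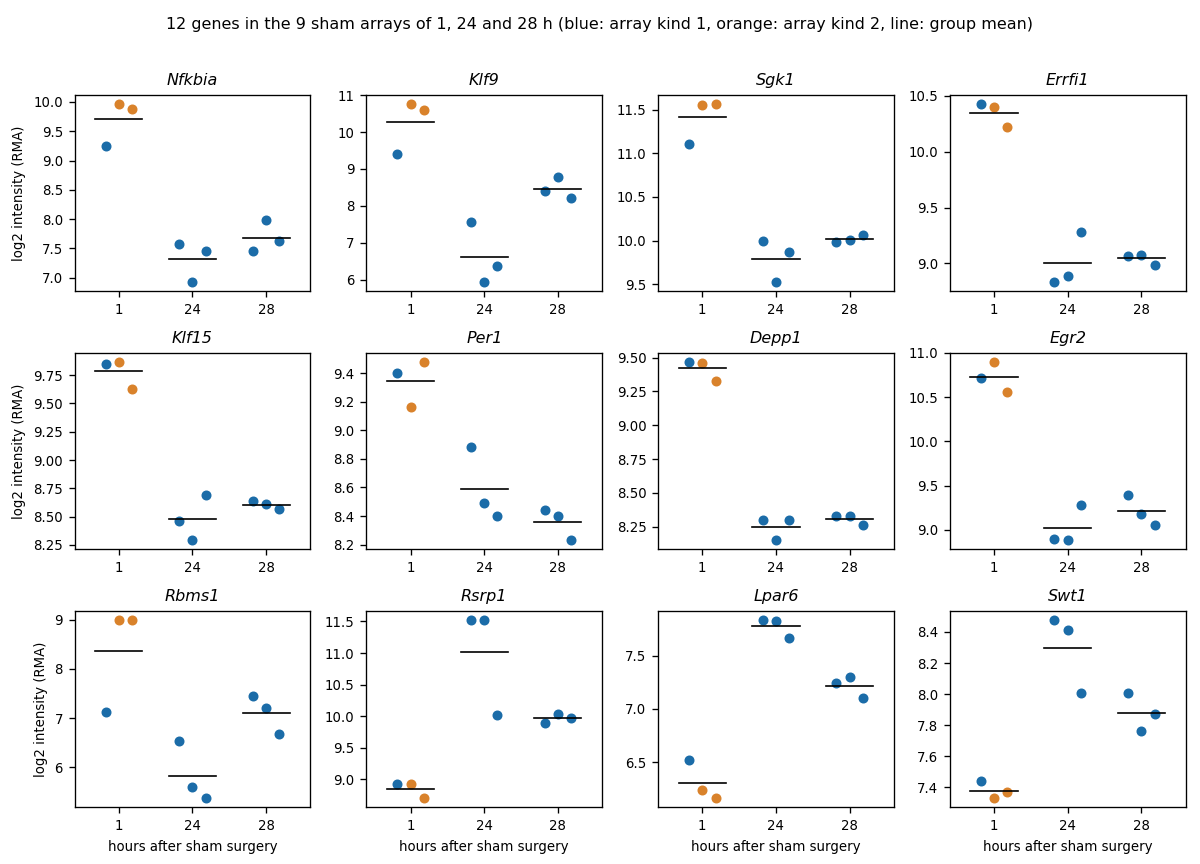
Log2 intensity (vertical axis) of 12 genes in the 9 sham arrays at 1, 24 and 28 h (horizontal axis), 1 point per array, blue for array kind 1 and orange for kind 2, with a line at each group mean. For 11 of the 12 genes all 3 arrays at 1 h lie on 1 side of all 6 late arrays, and for Rbms1 array a at 1 h, at 7.12, lies below 2 of the 28 h arrays.

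Glucocorticoid-responsive genes made up 6 of these 12. Of the 20 tested genes in a list of glucocorticoid-responsive genes 7 fell, against 1.13% of all tested genes, 0 rose and 13 did not pass the test, and 19 of 20 differences were below 0, against 45.4% of all tested genes. The median of the list was -0.64 log2 against 0.02 for all genes. Averaged over the list, array levels were 9.66, 9.70 and 9.63 log2 at 1 h and between 8.70 and 8.96 in the late arrays. The averages at 1 h lay near one another although array a differs in kind, but single genes differed by kind both ways. Array a was lower than b and c for Klf9 (9.41 against 10.77 and 10.61) and higher for Fkbp5 (9.59 against 8.85 and 8.91). With array kind as a block 12 of the 20 fell, against 8.06% of all tested genes, with a list median of -0.90. The differences with the block were -1.35 log2 for Sgk1, -2.27 for Klf9, -1.38 for Klf15, -1.35 for Errfi1, -1.01 for Per1 and -1.04 for Dusp1, all called. The list shares Dusp1 with the immediate-early list, Dusp1 and Errfi1 with the list of MAP kinase feedback genes, Per1 with the clock list and Nfkbia with the list of NF-kappaB targets.

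Nfkbia encodes the inhibitor that holds NF-kappaB in the cytoplasm. Its log2 intensity was 9.25, 9.97 and 9.88 at 1 h, 7.57, 6.92 and 7.46 at 24 h, and 7.45, 7.99 and 7.62 at 28 h. All 6 late arrays lay more than 1 log2 below the lowest array at 1 h. The mean fell 4.58-fold, from 9.70 ± 0.39 (SD, n = 3) to 7.50 ± 0.35 (SD, n = 6), a difference of -2.20 log2 (SE 0.23, limma adjusted p = 3.89e-09), and was -1.93 with the block (limma adjusted p = 0.000665).

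Sgk1 is a kinase that regulates ion channels and is induced by glucocorticoids and mineralocorticoids. Its arrays read 11.11, 11.56 and 11.57 at 1 h, 9.99, 9.52 and 9.87 at 24 h, and 9.98, 10.01 and 10.06 at 28 h. The late arrays formed a narrow band below all arrays at 1 h, and Sgk1 fell 2.85-fold (-1.51 log2, SE 0.18, limma adjusted p = 9.29e-08).

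Klf9, a Krüppel-like transcription factor that the glucocorticoid receptor induces in many tissues, read 9.41, 10.77 and 10.61 at 1 h, 7.56, 5.92 and 6.37 at 24 h, and 8.40, 8.79 and 8.21 at 28 h. It was lowest at 24 h and lay between the 2 other hours at 28 h. It fell 6.59-fold (-2.72 log2, SE 0.36, limma adjusted p = 1.19e-06), by 3.64 log2 at 24 h, while at 28 h alone the difference of -1.79 did not pass (limma adjusted p = 0.0614). A dimmer probe set of Klf9 gave -0.97 and the dimmest, below the level of the filter (5.46 log2), 0.01.

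Klf15, a related factor that acts in amino acid and lipid metabolism, had 9.85, 9.87 and 9.63 at 1 h and between 8.29 and 8.69 in the late arrays, and fell 2.36-fold (-1.24 log2, SE 0.22, limma adjusted p = 0.000646). Errfi1, a feedback inhibitor of the epidermal growth factor receptor, had 10.43, 10.40 and 10.22 at 1 h and between 8.83 and 9.28 later, and fell 2.51-fold (-1.33 log2, SE 0.21). The clock gene Per1 fell less, 1.83-fold (-0.87 log2, SE 0.14), from 9.40, 9.16 and 9.48 to 8.88, 8.49 and 8.40 at 24 h and 8.44, 8.40 and 8.23 at 28 h. For these 3 genes the 3 arrays at 1 h lay close together and differed little by kind. Dusp1, a phosphatase that switches off MAP kinases, fell 2.16-fold (-1.11 log2, SE 0.24, limma adjusted p = 0.00515), with 24 h array c at 9.87 against 8.87 to 9.30 in the other 5 late arrays. Its call was lost without 24 h arrays a and b (-0.82 log2, limma adjusted p = 0.143).

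Depp1, a FoxO target linked to autophagy that the list does not hold, had narrow groups: 9.47, 9.46 and 9.33 at 1 h against 8.15 to 8.33 in the 6 late arrays. It fell 2.21-fold (-1.14 log2, SE 0.14, limma adjusted p = 9.80e-08; -1.26 with the block).

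Other genes of the list passed only with array kind as a block. Fkbp5, a chaperone of the steroid receptors, had 9.59 in array a at 1 h, 8.85 and 8.91 in b and c, and 7.94 to 8.5 late, a difference of -0.91 without the block (limma adjusted p = 0.138) and of -1.39 with it (limma adjusted p = 0.000685). The transcription factor gene Cebpb gave -0.78 and -1.0, and Pdk4, a kinase that limits the use of glucose, -0.87 and -1.20. In contrast Tsc22d3, also called GILZ and a classic target of the receptor, gave -0.15 without the block and -0.28 with it, and passed in neither fit. Cdkn1a (-0.04), Mt2A (-0.32) and Cebpd (-0.51) did not pass either, with or without the block. Dimmer probe sets of Fkbp5 and Pdk4 gave -0.44 and -0.16 without the block, with overlapping groups for both. Klf15, Depp1, Rbms1 and Swt1, like Cebpb, Klf2, Zfp36, Igf1, Ak3, Jun, Gadd45a, Sox11, Reg3b, Nfil3, Cry2, Cirbp, Scn9a and Mag, lie outside the rule for named genes and were chosen after their values were seen.

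The promoters of the genes that fell were read to show what lies just before their starts, in 250 bases from RefSeq (GRCr8). The 9 genes were Nfkbia, Sgk1, Klf9, Errfi1, Klf15, Per1, Dusp1, Depp1 and Egr2, all with an entry (several for Sgk1, all read). The 4 below hold a match to a motif searched on both strands, shown in capitals, and are written 5′ to 3′ on the gene's strand. Nfkbia lies on the minus strand (chr6:78597073-78597322), Klf9 on the plus strand (chr1:230126396-230126645), Klf15 on the plus strand (chr4:124522765-124523014) and Egr2 on the minus strand (chr20:21054442-21054691).
Nfkbia: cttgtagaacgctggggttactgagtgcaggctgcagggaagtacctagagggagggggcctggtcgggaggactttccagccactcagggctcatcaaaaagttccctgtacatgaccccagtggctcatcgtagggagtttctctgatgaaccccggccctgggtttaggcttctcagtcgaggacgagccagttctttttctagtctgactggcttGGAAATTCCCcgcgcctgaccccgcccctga
Klf9: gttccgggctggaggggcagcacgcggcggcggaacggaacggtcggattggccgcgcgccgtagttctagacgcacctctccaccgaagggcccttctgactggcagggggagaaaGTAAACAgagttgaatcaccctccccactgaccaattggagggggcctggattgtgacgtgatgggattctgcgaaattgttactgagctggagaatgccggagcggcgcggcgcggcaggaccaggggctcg
Klf15: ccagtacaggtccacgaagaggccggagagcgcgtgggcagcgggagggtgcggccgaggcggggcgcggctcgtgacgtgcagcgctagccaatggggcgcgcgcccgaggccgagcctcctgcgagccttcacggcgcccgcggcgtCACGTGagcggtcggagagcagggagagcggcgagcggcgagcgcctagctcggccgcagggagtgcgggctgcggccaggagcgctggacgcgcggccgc
Egr2: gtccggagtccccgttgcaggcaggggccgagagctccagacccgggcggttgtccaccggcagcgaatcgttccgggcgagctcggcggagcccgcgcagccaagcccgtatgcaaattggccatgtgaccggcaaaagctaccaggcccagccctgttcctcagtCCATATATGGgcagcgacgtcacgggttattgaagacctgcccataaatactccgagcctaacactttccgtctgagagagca
The capitals mark an NF-kappaB motif 31 bases before the start of Nfkbia, a forkhead motif (GTAAACA) 133 bases before that of Klf9, an E-box (CACGTG) 101 bases before that of Klf15 and a serum response motif 83 bases before that of Egr2. Over all 33469 promoters of this length these motifs occur in 0.314%, 3.21%, 5.59% and 1.09%. The serum response motif was searched with some inner positions open to any base. Dusp1 holds an E-box 107 bases and a cyclic AMP response motif (TGACGTCA, in 1.59% of promoters) 124 bases before its start. The glucocorticoid receptor motif (a full palindrome) occurs in 0.373% of promoters and its letters are in none of the windows of these 9 genes. A match is a description of the letters only.

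Immediate-early genes fell in part. Of 35 tested genes 6 fell, 0 rose and 29 did not pass, with a median of -0.07 log2, and 7 fell with the block. Against these 6 of 35 and 7 of 35 stand 1.13% and 8.06% of all tested genes. The largest change was that of Egr2, a zinc finger factor that is both an immediate-early gene and the regulator of myelination in Schwann cells. It had 10.72, 10.90 and 10.56 at 1 h, 8.90, 8.88 and 9.28 at 24 h, and 9.39, 9.18 and 9.05 at 28 h. No late array came within 1 log2 of an array at 1 h, and Egr2 fell 3.06-fold (-1.61 log2, SE 0.24, limma adjusted p = 2.54e-05). A dimmer probe set gave -1.32.

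The others were Klf4 (-1.09 log2, SE 0.22) and Klf2 (-0.95, SE 0.25), Krüppel-like factors, Dusp1, the orphan nuclear receptor gene Nr4a1 (-0.53, SE 0.13) and Zfp36 (-0.84, SE 0.20), whose product destabilises cytokine mRNAs. Klf4 illustrates the pattern, with 8.58, 8.68 and 8.52 at 1 h against 7.11 to 7.83 late. Zfp36 overlapped, since 24 h array c had 8.73 against 8.62 to 8.87 at 1 h, and it did not pass with the block (limma adjusted p = 0.126). The best known members did not pass: Fos gave -0.26, Egr1 -0.28, Junb -0.04 and Jun -0.22 log2. For Fos the arrays at 1 h (6.64, 7.01 and 6.68) lay inside the range of the late arrays (5.93 to 7.51). In the list of MAP kinase feedback genes 3 of 19 fell, Errfi1, Dusp1 and Spry1, an inhibitor of growth factor signalling (-0.58 log2, SE 0.16). The same 3 fell with the block, against 1.13% of all tested genes without it and 8.06% with it.

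Several genes that rose had a common shape over the late arrays. Rsrp1, a protein rich in arginine and serine, had 8.93, 8.93 and 8.70 at 1 h, 11.53, 11.52 and 10.02 at 24 h, and 9.90, 10.03 and 9.97 at 28 h. It rose 3.12-fold (1.64 log2, SE 0.28, limma adjusted p = 0.000296), and arrays a and b at 24 h stood above the other 4 late arrays. Clk1, a kinase of splicing factors, followed the same shape with 8.54, 8.80 and 8.38 at 1 h, 11.01, 10.93 and 9.27 at 24 h, and 9.25, 8.95 and 9.02 at 28 h (1.16 log2, SE 0.27, limma adjusted p = 0.0125). Its relative Clk4 rose by 0.94 log2 (SE 0.23), with 24 h a and b at 8.63 and 9.05, c at 7.84 and 28 h between 7.61 and 7.74. The long noncoding RNA Meg3 rose by 1.47 log2 (SE 0.42, limma adjusted p = 0.0464), and in 8 of the 9 fits without 1 array it was not called. A dimmer probe set of Rsrp1 gave 1.10 log2 with overlapping groups and another shape. In it 24 h arrays a, b and c read 9.04, 7.51 and 7.37, against 6.59 to 7.51 at 1 h and 7.76 to 8.57 at 28 h.

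Without 24 h arrays a and b the differences were 1.14 for Rsrp1 (limma adjusted p = 0.0486), 0.60 for Clk1 (limma adjusted p = 0.392), 0.60 for Clk4 (limma adjusted p = 0.322) and 1.27 for Meg3 (limma adjusted p = 0.257). In the list of splicing and RNA-binding proteins 2 of 21 genes rose, Clk1 and Clk4, against 0.749% of all tested genes. Of the rest 0 fell and 19 did not pass, and the list median was 0.20 log2. With the block Clk1 passed (1.33 log2), Clk4 did not (0.83, limma adjusted p = 0.0521), Luc7l3, a splicing factor, rose (0.68) and Cirbp, a cold-inducible RNA-binding protein, fell (-0.64). The block thus gave 2 of 21 higher and 1 lower, against 2.12% and 8.06% of all tested genes. At 24 h alone 5 of the 21 rose, against 1.32% of all tested genes, and at 28 h alone 0. Ints6l (1.26 log2), Vps13c (1.07) and Phf20l1 (0.95), others of the 10 largest rises, were likewise highest in 24 h arrays a and b. Of them only Phf20l1 also passed with the block. The next brightest probe sets of Phf20l1 gave -0.38 and -0.07 log2 without the block. Those below the level of the filter gave between -0.07 and 0.42.

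Lpar6, a receptor for lysophosphatidic acid, did not share this shape. It had 6.52, 6.24 and 6.16 at 1 h, 7.84, 7.83 and 7.67 at 24 h, and 7.24, 7.30 and 7.10 at 28 h, so that the 3 groups were separate and 28 h lay between. It rose 2.28-fold (1.19 log2, SE 0.16, limma adjusted p = 1.19e-06). Swt1, an RNA endonuclease, rose 1.64-fold (0.71 log2, SE 0.13), from 7.44, 7.33 and 7.37 to between 7.76 and 8.48. A dimmer probe set of Swt1 gave 0.28 log2, and its groups overlapped (5.96 to 6.45 at 1 h, 6.26 to 6.99 late).

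The largest falls by size lay on the split between array kinds. The kinds were themselves drawn from 10 genes with separate bands, and for any of these a loss with the block is partly fixed by that choice. Plcxd3, a phospholipase-like protein, had 5.83 in array a at 1 h, 10.72 and 10.64 in b and c, and 5.27 to 6.0 in the 6 late arrays. Its difference of -3.42 log2 (SE 0.79, limma adjusted p = 0.0125) became -0.30 with the block (limma adjusted p = 0.535). The same held for the transcription factor genes Tcf4 (-3.10, with the block -0.42), Onecut2 (-2.93 and -0.58) and Nfia (-2.83 and -0.91), the potassium channel gene Kcna1 (-3.05 and -0.60), the small GTPase gene Rab14 (-2.95 and -0.31), Rasal2 (-2.89 and -0.05) and the amino acid transporter gene Slc3a1 (-2.83 and -0.15). Of the 10 largest falls 2 passed in both fits, Klf9 and the dynein subunit gene Dync1li1 (-2.71 and -0.76). For Dync1li1 array a at 1 h (9.18) lay just above the late arrays (8.10 to 8.85) and b and c at 12.32 and 12.28. A dimmer probe set of Dync1li1 went the other way, at 1.39 log2 without the block. It had 9.59, 7.81 and 7.75 at 1 h and 9.33 to 10.2 late, so array a lay within the late range. Rbms1, an RNA-binding protein, was divided in the same way (7.12 in array a, 9.0 and 8.99 in b and c, 5.37 to 7.44 late) and did not pass with the block (-1.23 log2, limma adjusted p = 0.0594).

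Probe sets of 1 gene could disagree across the array kinds. Gnb1, a G protein subunit counted among the rises (1.43 log2, limma adjusted p = 0.0475), had 12.74 in array a at 1 h, 10.61 and 10.52 in b and c, and 12.60 to 12.89 late. Another probe set of Gnb1 gave -3.34 log2 and the remaining one 0.53, and the used one gave 0.23 with the block. Of the 139 lower genes 64 were among those whose levels differed at least 2-fold between array kinds (271 genes higher and 31 lower in kind 2), and of the 92 higher genes 1 was. Igf1, a growth factor, fell by 1.40 log2 (-1.48 with the block) by its brightest probe set. Another gave 0.08 and the dimmest, near the filter level, -1.39.

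Genes of antigen presentation and interferon response fell in small number. Of 30 tested genes 3 fell, against 1.13% of all tested genes, 0 rose and 27 did not pass. The median was -0.35 log2, and 26 of 30 differences were below 0, against 45.4% of all tested genes. With the block 3 of 30 fell, RT1-Da, Cd74 and RT1-Db1, against 8.06% of all tested genes. RT1-Da, a class II histocompatibility chain, had 9.76, 10.09 and 9.82 at 1 h, 8.34, 8.72 and 8.74 at 24 h, and 9.06, 9.11 and 9.02 at 28 h, and fell 2.08-fold (-1.06 log2, SE 0.26, limma adjusted p = 0.0163). Cd74, the invariant chain that class II molecules are built on, fell 1.75-fold (-0.81 log2, SE 0.22), and for both genes every late array lay below every array at 1 h. Isg15, a ubiquitin-like interferon target, had 8.98, 9.97 and 9.71 at 1 h and 7.49 to 8.5 late (-1.5 log2, limma adjusted p = 0.0394), and did not pass with the block (-1.19 log2, limma adjusted p = 0.217). The regulator Irf7 gave -0.98 log2 (limma adjusted p = 0.0838).

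Of 24 tested macrophage markers 1 fell, against 1.13% of all tested genes, 0 rose and 23 did not pass. It was Lyve1, a hyaluronan receptor of resident macrophages and lymphatic endothelium (-0.96 log2, SE 0.27, limma adjusted p = 0.0467). Averaged over the list, levels were between 7.60 and 7.83 log2 at 1 h and between 7.2 and 7.94 late, so the hours overlapped. With the block Lyve1 and 3 more fell, the complement genes C1qc and C1qb and the mannose receptor gene Mrc1. Lower calls were thus 4 of 24 with the block, against 8.06% of all tested genes. None of the 10 lymphocyte or 4 neutrophil markers tested passed, and the neutrophil gene S100a9 had 5.64, 5.51 and 5.56 at 1 h and 5.44 to 6.04 late. Whether the number of antigen-presenting cells had a part in the fall of RT1-Da and Cd74 was not tested.

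Of 4 erythrocyte markers 1 fell and 2 fell with the block, against 1.13% and 8.06% of all tested genes. The globin gene Hbb had 11.75, 11.79 and 11.75 at 1 h, 10.01, 9.99 and 9.40 at 24 h, and 11, 11.47 and 11.18 at 28 h, and fell 2.39-fold (-1.26 log2, SE 0.27, limma adjusted p = 0.00515), with 24 h lowest. Alas2, an enzyme of haem synthesis in red cells, was likewise lowest at 24 h (6.34 to 6.94, against 7.34 to 7.62 at 28 h) and passed only with the block (-0.75 log2). The other 2 did not pass in either fit: Ahsp, which stabilises free globin, gave 0.29 log2 and Slc4a1, the anion exchanger of red cells, -0.20. Whether blood in the tissue had a part in other results was not tested. Of 33 collagen and matrix genes 2 fell, Col1a1 (-1.02 log2, SE 0.22) and Col1a2 (-0.64, SE 0.18), against 1.13% of all tested genes. With the block 0 of the 33 passed. A second probe set of Col1a1 gave -0.11 and of Col1a2 -0.42. Skeletal muscle markers had a median of -0.39 log2 with 15 of 16 differences below 0. By limma 0 of the 16 passed without the block (1 at an unadjusted p under 0.05) and 6 fell with it, against 8.06% of all tested genes.

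Few markers of neurons and glia passed the test. Of 24 sensory neuron markers 1 rose, the ATP-gated channel gene P2rx3 (0.28 log2, SE 0.08), which did not pass with the block (0.19, limma adjusted p = 0.215) and whose groups overlapped, and 1 fell, Elavl4 (-1.55), which followed the array kinds and gave -0.16 with the block. With the block 1 of the 24 rose, the sodium channel gene Scn9a (0.72 log2), and 1 fell, the neurotrophin receptor gene Ntrk3 (-0.75). Of all tested genes 0.749% were called higher and 1.13% lower without the block, and 2.12% and 8.06% with it. The peptide gene Calca had 13.27, 13.31 and 13.40 at 1 h and 13.22 to 13.50 late (0.04 log2), and the heat-gated channel gene Trpv1 gave 0.17 log2. Of 18 Schwann cell and myelin markers Egr2 was the only one called without the block. With it Egr2, Prx (-0.47 log2) and Mag (-0.60), the latter 2 myelin proteins, fell, and Sox10, a transcription factor of glia, rose (0.61). These 3 lower and 1 higher of 18 stand against 8.06% and 2.12% of all tested genes. Of 9 satellite glia markers 0 passed by limma without the block (3 at an unadjusted p under 0.05) and 1 with it, Sox10. The glial filament gene Gfap gave 0.43 log2 (limma adjusted p = 0.347). Among 18 endothelial markers Slco1c1, a thyroid hormone transporter, rose by 0.92 log2 (SE 0.25) and the glucose transporter gene Slc2a1 fell by 0.57 (SE 0.11), and both passed with the block.

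Among the clock genes 1 passed. Of 18 tested genes Per1 fell, against 1.13% of all tested genes, and 17 did not pass. Per2 gave -0.03 log2, Dbp -0.33, Nr1d1 -0.30, Nr1d2 -0.22, Per3 -0.50 and Clock 0.27. Dbp, a clock output gene, scattered widely at 28 h, with 6.82 in array a and 9.06 and 8.70 in b and c, and Nr1d1 was divided in the same order (6.89, 7.65 and 7.61). With the block 3 of 18 fell, Per1, Nfil3 and Cry2, where 8.06% of all tested genes were called lower.

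Of the metabolic lists, cholesterol biosynthesis (20 genes tested), fatty acid synthesis (16) and fasting and fatty acid oxidation genes (30) had 1 lower gene each, against 1.13% of all tested genes. They were Idi1 (-1.07 log2), Elovl6 (-1.35) and Txnip (-0.64), and none of the 3 passed with the block. In all, 17 lists with 285 tested members had no gene called by limma, and 36 of these members had an unadjusted p under 0.05. They include the lists of oxidative phosphorylation (29 tested), ribosomal proteins (17), heat shock proteins (19), unfolded protein response (29), cell division (28), p53 targets (17), oxidative stress (24) or neuropeptides (26). All 17 ribosomal protein genes had differences below 0, with a median of -0.17 log2, and 5 fell with the block, against 8.06% of all tested genes.

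**Figure D3:**
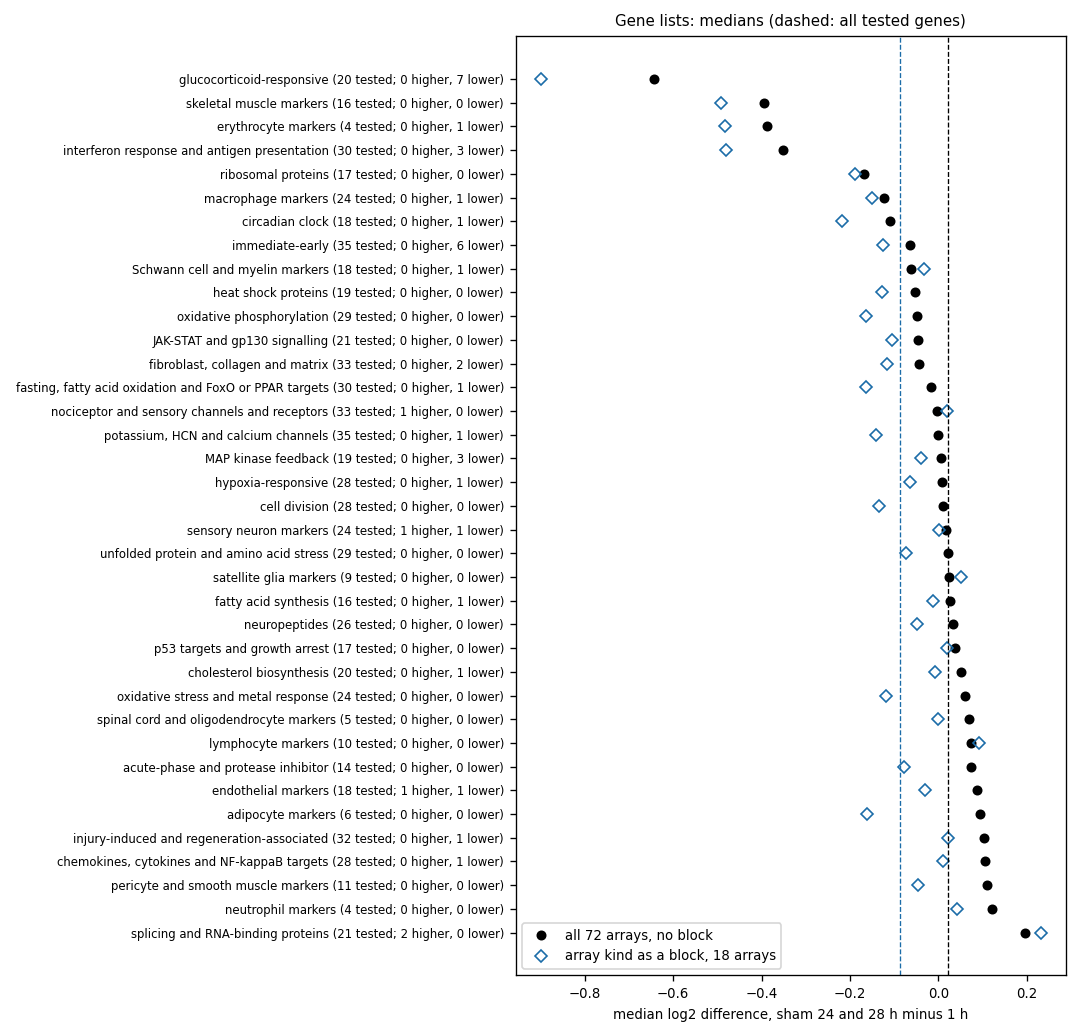
Median log2 difference between 24 and 28 h and 1 h after sham surgery (horizontal axis) for 37 gene lists, in the fit to all 72 arrays (black circles) and with array kind as a block (blue diamonds), with dashed lines at the medians of all tested genes (0.02 and -0.09). The glucocorticoid-responsive list has the lowest median in both fits, -0.64 and -0.90, and the splicing list the highest, 0.20 and 0.23.

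After sham surgery few injury genes passed, where 0.749% of all tested genes were called higher and 1.13% lower. Of 32 injury-induced and regeneration-associated genes 0 rose after sham, 1 fell (Basp1, a growth cone protein that followed the array kinds and did not pass with the block, at -0.68 log2) and 31 did not pass (5 higher and 3 lower of the 32 at an unadjusted p under 0.05 by limma), with a median of 0.10 log2. In the same contrast of hours after the proximal lesion, where 2494 of all genes (20.3%) were called, 9.91% higher and 10.4% lower, 24 of the 32 rose and 2 fell, with a median of 1.09. The difference between the surgeries, proximal minus sham, was itself called for 148 genes (1.21%), 119 higher (0.969%) and 29 lower (0.236%).

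Atf3, a stress-induced factor of injured neurons, had 7.85, 7.43 and 7.17 at 1 h after sham, 8.45, 9.30 and 10.16 at 24 h, and 10.15, 7.96 and 7.83 at 28 h. Arrays c at 24 h and a at 28 h stood above the others, and 28 h array c lay below array a at 1 h. The difference of 1.5 log2 (SE 0.44, limma adjusted p = 0.0629) did not pass in the fit to all arrays, passed at 24 h alone (1.82 log2, limma adjusted p = 0.0379) and passed in 11 of 27 other settings. After the proximal lesion it was 4.52 log2, and the surgeries differed by 3.02 log2 (limma adjusted p = 0.00292). The lowest late proximal array (12.11) lay above every sham array.

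Other injury genes did not pass after sham. The cytokine gene Il6 stayed between 4.19 and 4.82 in all 9 sham arrays, below the level of the filter (5.46), while the proximal arrays went from 4.15 to 4.26 at 1 h to 7.13 to 8.26 late. Sox11, a factor of regenerating neurons, had 5.10 to 5.56 at 1 h and 5.18 to 5.74 late (0.10 log2), and the surgeries differed by 2.18. Gadd45a, a stress gene, gave 0.40 log2 with its highest values in 24 h c (10.59) and 28 h a (10.11), the arrays in which Atf3 was also highest. Gfap, a filament of reactive glia, was highest in 24 h c as well, at 9.44 against 7.72 to 8.45 in the other late arrays. The secreted lectin gene Reg3b gave 0.73 (limma adjusted p = 0.271), with 6.90 to 7.69 at 1 h and 7.44 to 8.21 late, and the neuropeptide gene Gal 0.46 (limma adjusted p = 0.0577). Ccl2, a chemokine that attracts monocytes, gave 0.26, Socs3, a feedback inhibitor of cytokine receptors, -0.13 and the protease inhibitor gene Timp1 -0.29.

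Of the 12 genes that stayed called after sham surgery all 12 were called in the same direction in the proximal arrays and 7 of them in the distal arrays, where 2045 genes (16.7%) were called, 11.2% higher and 5.47% lower. Depp1 was -1.40 log2 after the proximal and -1.67 after the distal lesion, Nfkbia -1.85 and -0.84, Sgk1 -0.95 and -0.66, Errfi1 -0.74 and -1.13, Lpar6 1.30 and 1.20, and Rsrp1 1.38 and 0.80. For Rsrp1 the distal arrays at 1 h ran from 9.79 to 11.39, with a median of 11.31, against 11.61 to 11.88 late. Its distal rise thus leans on the lowest array at 1 h. Distal array do at 1 h lay in technical set B, and the other distal arrays of these hours in set A. In the distal arrays Klf9 (-0.55), Klf15 (-0.18), Per1 (-0.04), Egr2 (-0.50) and Rbms1 (-0.28) did not pass. The difference between proximal and sham was called by limma for 0 of the 12, and 2 of them had an unadjusted p under 0.05. It was 0.85 log2 for Klf9 and 0.84 for Egr2, the sham fall being the larger for both. The distal arrays are all of kind 2, and those of these hours lay in other technical sets than the sham arrays, so their levels were not set against those of the sham arrays. Of the 62 genes lower in both sham fits 44 were also called lower in the proximal and 11 in the distal arrays, and of the 45 higher genes 39 and 26. The proximal arrays share the division into kinds with the sham arrays.

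**Figure D4:**
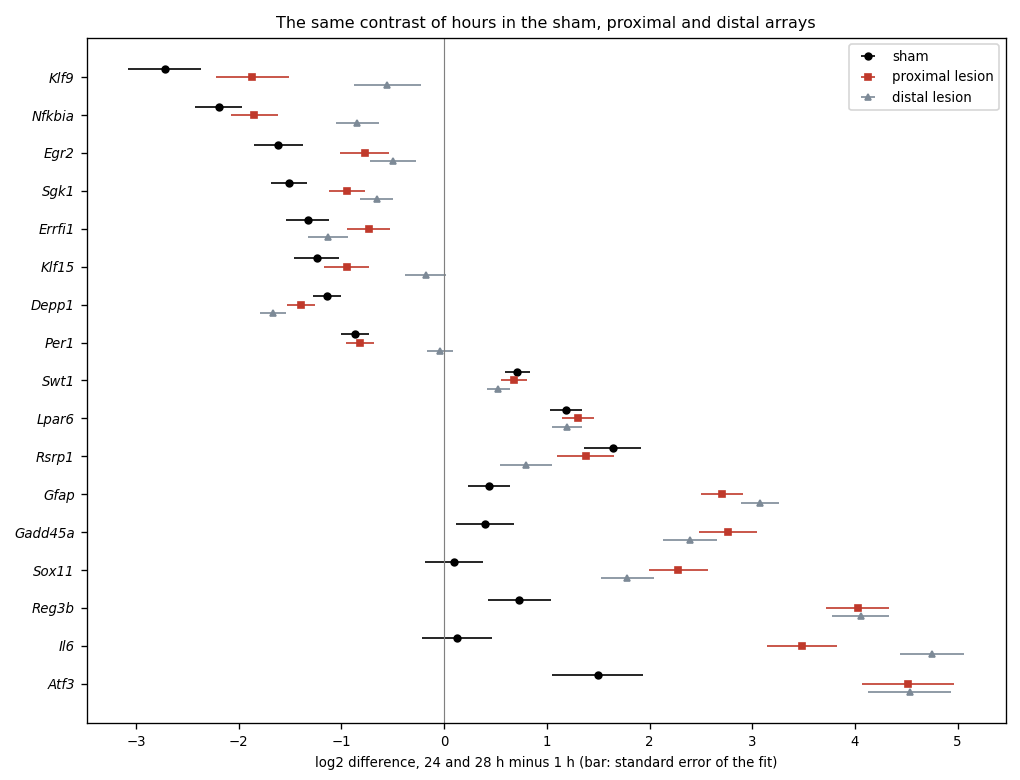
Log2 difference between 24 and 28 h and 1 h (horizontal axis) with its standard error (bars) for 17 genes after sham surgery (black circles), proximal lesion (red squares) and distal lesion (grey triangles). Nfkbia, Sgk1, Errfi1 and Depp1 lie below 0 and Lpar6 and Rsrp1 above 0 in all 3, whereas Il6 and Sox11 lie near 0 after sham and far to the right after either lesion.

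Fewer genes passed at 28 h than at 24 h, and 1 gene between them. At 24 h against 1 h 319 genes (2.6%) were called, 162 higher (1.32%) and 157 lower (1.28%), and at 28 h against 1 h 9 genes (0.0733%), of which Sgk1, Egr2, Errfi1, Klf15, Nfkbia, Per1 and Depp1 were lower (0.057%) and Lpar6 and Ndufaf1, a factor of complex I assembly, higher (0.0163%). Arrays of the same letter deviated together at 1 h and 28 h, and with the letter as a replicate block 99 genes were called at 28 h, 16 higher and 83 lower. For 8 of the 9 genes, all but Ndufaf1, the call at 24 h had the same direction. Between 28 h and 24 h limma called 1 gene (0.00815%), and 573 genes had an unadjusted p under 0.05. It was Ak3, a mitochondrial adenylate kinase, with 9.70, 9.65 and 9.64 at 1 h, 8.68, 8.13 and 8.35 at 24 h, and 9.26, 9.64 and 9.41 at 28 h. Klf9 (1.85 log2), Hbb (1.41) and Lpar6 (-0.56) also lay nearer to 1 h at 28 h than at 24 h, without passing that test (limma adjusted p = 0.115, 0.115 and 0.545). A dimmer probe set of Ak3 overlapped between the hours. It had 8.98 to 9.18 at 1 h, 8.53 to 9.31 at 24 h and 9.05 to 9.38 at 28 h.

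The other 12 sham arrays, which lie in other technical sets, give the hours between. They enter the tests above only through the shared estimate of the spread, and their levels were not tested. Nfkbia was between 9.65 and 9.78 in the 6 arrays of 3 and 8 h, 8.26 and 9.09 at 12 h, 8.54 at 16 h, and 8.56, 8.25 and 9.45 at 18 h, against 6.92 to 7.99 late. Klf9 had 10.38 to 10.74 at 3 and 8 h, and Sgk1 10.83 to 11.14. Egr2 had 9.78 to 10.31 at 3 and 8 h, below its 10.56 to 10.90 at 1 h. Per1 was between 8.41 and 9.16 at 3 and 8 h. Rsrp1 had 10.99 to 11.24 and Clk1 10.07 to 10.45 in the 6 arrays of 3 and 8 h, above all their arrays at 1 h, and at 18 h array c (9.55 and 9.01) lay below a and b (11.35 and 11.37, 10.59 and 10.79). Lpar6 was between 6.93 and 7.26 at 3 and 8 h and between 7.44 and 7.88 at 12 and 16 h. Array b at 12 h stood apart for injury genes, with Atf3 at 11.55, Il6 at 7.07 and Sox11 at 7.56 log2, and it enters that estimate. The arrays of 3 and 8 h lay near or within the 1 h range for Nfkbia and Klf9 and above it for Rsrp1 and Clk1, and since no 1 h array lies in their sets, hour and set cannot be told apart there.

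**Figure D5:**
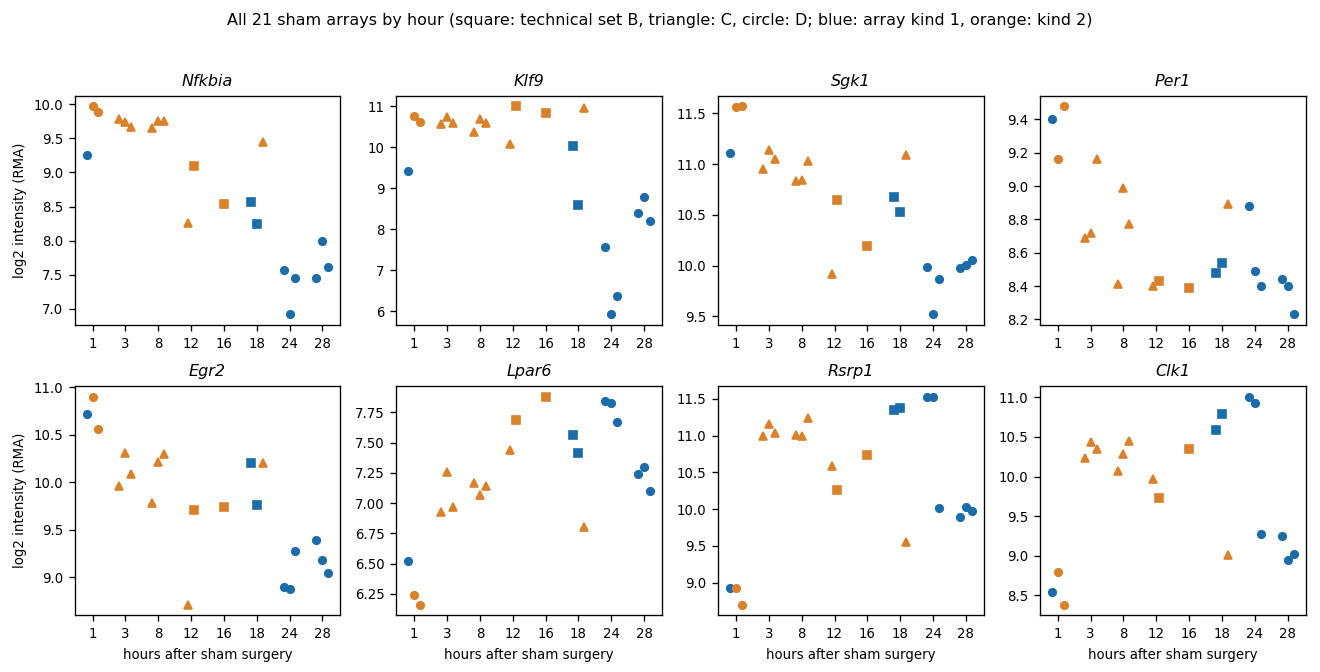
Log2 intensity (vertical axis) of 8 genes in all 21 sham arrays by hour after surgery (horizontal axis), with squares, triangles and circles for technical sets B, C and D and blue and orange for array kinds 1 and 2. Levels across sets are not tested; Nfkbia runs from 9.25 to 9.97 at 1 h to 6.92 to 7.99 at 24 and 28 h, and Rsrp1 from 8.70 to 8.93 to 9.90 to 11.53.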

How the data were processed

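Log2 probe set intensities for 72 arrays were deposited by the authors, who made them with RMA, per the submitters' processing notes; its version, and whether all arrays were normalized together, are not given in the sources used here. The values were used as deposited. Of 31099 probe sets 57 controls were left out, 20826 had 1 gene symbol, 436 several and 9780 none. Each of 14217 genes was read from its brightest probe set, by the mean of the 72 arrays, and 12276 with a mean above the 25th percentile (5.46 log2) were tested.

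limma 3.58.1 (R 4.3.3) fitted 1 mean for each of 24 groups of lesion and hour (48 residual degrees of freedom) with a trended prior, and tested the mean of the 24 h and 28 h groups against 1 h, two-sided, with Benjamini-Hochberg adjustment over all tested genes and a threshold of 0.05. The model was tested on simulated data with independent normal spread, no technical sets or near-identical arrays, and array kind added only as a uniform shift. That test does not bear on how the counts moved between settings. A fit with array kind as a block (11 residual degrees of freedom), added after seeing the data, used 18 arrays. Other settings were another filter, normalization, spread, blocks and left-out arrays. Array letters, whose meaning the labels do not give, were checked for pairing by the correlation of deviations from group means (limit 0.1). All 3 letters passed for sham 1 h with 28 h (0.242, 0.279 and 0.21) and with proximal 1 h (0.696, 0.509 and 0.478). None passed for sham 1 h with 24 h (-0.359, -0.224 and -0.103) or 24 h with 28 h (-0.25, -0.306 and -0.00222).

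The arrays compared and the 37 gene lists were chosen with earlier results of these data known. Genes named were the 10 largest rises and falls with 1 direction at both late hours, in every list the 4 genes of lowest p, and a fixed set of clock, hormone-responsive, immediate-early, injury and immune genes. Arntl and Lcn2 of that set were not among the tested genes.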

Additional observations from a re-analysis of the deposited data

Results flagged for a closer look

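Among the 6 late sham arrays 1 array stood apart from the other 5 for 7 of the 92 genes examined, by a test that flags about 1 in 20 groups by chance. Array b at 24 h was low for Sgk1 (9.52 log2, the others 9.87 to 10.06) and Depp1 (8.15, the others 8.26 to 8.33). Array c at 24 h was high for the metallothionein gene Mt2A (10.52, the others 9.54 to 9.79), Junb (9.0, the others 7.94 to 8.30) and Rasal2 (5.28, the others 4.66 to 4.87). Array a at 24 h was low for Cd74 (8.51, the others 8.99 to 9.25) and high for Per3 (5.74, the others 5.25 to 5.43).

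The rise from 1 h to 24 and 28 h was larger after the proximal lesion than after sham for 11 of these genes, by the limma test of the difference. The difference in log2 was 3.36 for Il6, 3.29 for Reg3b, 3.02 for Atf3, 2.36 for Gadd45a, 2.27 for Gfap, 2.18 for Sox11, 1.69 for Irf7, 1.39 for Timp1, 1.30 for Jun, 1.18 for Gal and 1.16 for Socs3. Il6 passed the filter (5.46 log2) by its mean over all arrays, 5.64. After sham it lay below that level, at 4.22 to 4.39 at 1 h and 4.19 to 4.82 late. The late proximal arrays had 7.13 to 8.26. Sox11 lay near the filter level after sham, at 5.10 to 5.56 at 1 h and 5.18 to 5.74 late. For Irf7 the proximal arrays b and c at 28 h had 10.82 and 10.90, and the other 4 late proximal arrays 8.20 to 8.35.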

How the results depend on the processing

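Counts of called genes are given in the order late against 1 h (231), 24 h against 1 h (319), 28 h against 1 h (9), 28 h against 24 h (1), proximal (2494) and proximal minus sham (148), leaving out counts within 1.5 times these. Another quantile normalization gave 536, 805, 37, 8 and, for proximal minus sham, 329. A common median gave 462, 631, 32, 4 and, for proximal minus sham, 383. Array weights gave 4651, 4716, 3766, 3129, 4838 and 2096. With technical set as a block the counts were 777, 1096, 99, 32, 4370 and 534, and with array kind as a block 1249, 1112, 576, 16, 5103 and 512. The same 18 arrays without that block gave 38 for 28 h against 1 h and 8 for 28 h against 24 h. Only the arrays compared gave 117 for 24 h against 1 h, 24 for 28 h against 1 h and 0 for 28 h against 24 h. Without the distal arrays the counts were 71 late, 128 at 24 h, 0 for 28 h against 24 h and 80 for proximal minus sham. Every named probe set gave 525 at 24 h and 0 for 28 h against 24 h. Leaving out 1 array at a time gave 13 to 620, 60 to 807, 5 to 166, 0 to 27, 1324 to 2364 and 87 to 218. Without 1 h arrays b and c 2 genes were called, and without 24 h arrays a and b 92. Averaging 28 h arrays b and c gave 184. The causes were not tested.

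With array letter as a replicate block the counts were 265, 117, 99, 0, 2231 and 151. Arrays of 1 letter deviated together for sham 1 h with 28 h, where the block moved the count from 9 to 99, and not for the other pairs of sham hours. Without 1 h arrays b and c the difference changed sign for Rasal2 (0.14 log2), Slc3a1 (0.0927), Gnb1 (-0.0197), Elavl4 (0.33) and Elovl6 (0.14). Nfkbia and Depp1 kept their direction and call in all 27 settings run for them.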
